A study of Mus musculus x Rattus norvegicus with 2 samples.

Results

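Aerocytes are one of the capillary cell types of the lung, and the cells described here are mouse endothelial cells selected on the RNA of Car4 and Ednrb, a pair of genes that mark them. A cell was taken as endothelial if its barcode had at least 4 unique molecular identifiers (UMIs, each standing for 1 counted RNA molecule) of Cdh5, Pecam1 and Cldn5 together and at most 2 of Epcam. It was a member if it also had at least 4 UMIs of Car4 and Ednrb together, and such cells are called gated cells here. There were 579 gated cells among 3342 mouse endothelial cells and 16268 mouse cells in all. Since Car4 and Ednrb chose the cells, their levels describe the choice and are not a result.

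The cells came from dissociated E20.5 lungs of interspecies embryos, with mouse cells (C57BL/6) inside a rat host (SD). In the control library the host rat was wild type and its lung was a mouse-rat chimera. In the mutant library the host was an Nkx2-1-/- rat, which lacks a transcription factor of the lung epithelium, and the lung was of mouse origin. The gene was deleted in the rat host only, and no allele is named for the mouse cells, which are the only cells described here. Each group was 1 library, prepared with the 10x 3' v3 chemistry, and the labels do not say how many embryos went into it. There is therefore no replicate check on any difference below, and no p-value. Cells of 1 library are not replicates, and intervals are 95% and cover counting error only.

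In the alveoli the capillary net is shared between aerocytes and general capillary cells. Aerocytes are large, thin and branched, lie against the alveolar type 1 cells where gas is exchanged, and depend on VEGFA from the epithelium. General capillary cells are smaller, can divide, and serve as progenitors of both types after injury. Car4 (ENSMUSG00000000805; mm10 chromosome 11, 84957786 to 84966044) encodes a carbonic anhydrase held on the cell surface, which helps carbon dioxide leave the blood. Ednrb (ENSMUSG00000022122; chromosome 14, 103814625 to 103844402) encodes the endothelin receptor type B. Prx (ENSMUSG00000053198; chromosome 7, 27499324 to 27520214) encodes the scaffold protein periaxin. Apln (ENSMUSG00000037010; chromosome X, 48025146 to 48034853) encodes apelin, whose receptor Aplnr is found on general capillary cells.

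The control file held 11129 barcodes with 123047433 UMIs, and 7414 of them were mouse cells by the limits used. The mutant file held 10918 barcodes with 103627303 UMIs and 8854 mouse cells. Mouse endothelial cells numbered 1283 and 2059. The files shared 47 barcode sequences, 2 of them endothelial in both, and no barcode was gated in both. Epithelial-gated and mesenchymal-gated cells of the same libraries are quoted below to show where else a gene was found. Free RNA in droplets gives any cell some UMIs of genes that it does not express.

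Gated cells were 7.17% of mouse endothelial cells in the control library (92 of 1283; 5.82 to 8.72) and 23.7% in the mutant library (487 of 2059; 21.8 to 25.5). They were 1.24% and 5.50% of all mouse cells. Depth moved with the gate, and most in the control library. The median gated control cell had 31646 UMIs and the median of the other endothelial cells was 5536, beside 9152 and 7777.5 in the mutant library. Of the 92 gated control cells, 76 lay among the deepest 321 endothelial cells, between 14484 and 169072 UMIs, where 23.7% were gated, and none among the shallowest 321. With the mutant cells put into 4 depth classes in the same way the shares rose less steeply, from 14.0% through 21.8% and 23.7% to 35.1%. Within depth classes the gap depended on the class. Among cells with 5000 to 10000 UMIs, 1.67% of control cells were gated (5 of 299; 0.545 to 3.86) and 22.7% of mutant cells (254 of 1117; 20.3 to 25.3). Among those with 10000 to 20000 UMIs the shares were 7.58% (16 of 211) and 29.7% (167 of 563). Above 20000 UMIs, where 70 of the 92 gated control cells lay, they were nearer, at 31.5% (70 of 222; 25.5 to 38.1) and 45.5% (45 of 99; 35.4 to 55.8).

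**Figure D1:**
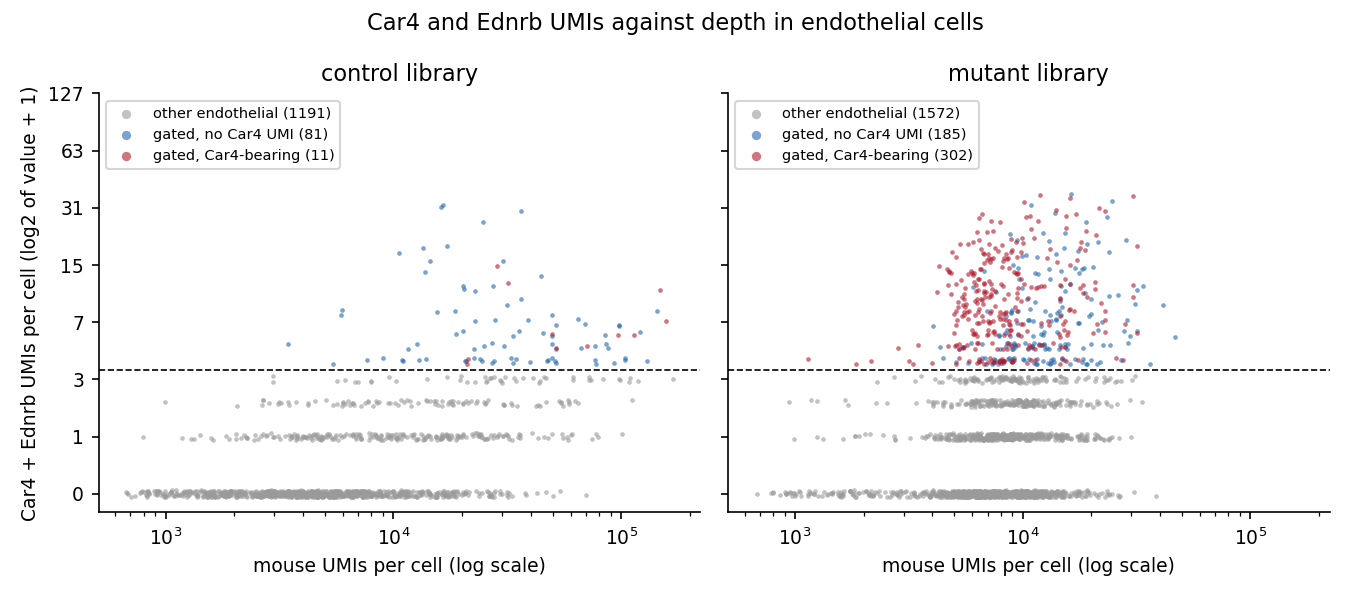
UMIs of Car4 and Ednrb together (vertical axis, spaced as the log2 of the value plus 1, with a little jitter) against mouse UMIs per cell (horizontal log axis) for the endothelial cells of each library, 1 point per cell; cells above the dashed line have at least 4. The 92 gated control cells lie mostly at high depth and 81 of them have no Car4 UMI, whereas 302 of the 487 gated mutant cells carry Car4 and are spread over the depths of their library.

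The gate rested on different genes in the 2 libraries. All 92 gated control cells had an Ednrb UMI and 11 had a Car4 UMI (12%; 6.12 to 20.4), and 1 had 4 or more Car4 UMIs. Of the 487 gated mutant cells, 302 had a Car4 UMI (62.0%; 57.5 to 66.3), 205 had 4 or more, and 459 had an Ednrb UMI. Ednrb alone does not set endothelial cells apart in these lungs: its level was 288 UMIs per 1000000 mouse UMIs (CPM) in control mesenchymal-gated cells and 316 CPM in mutant ones, beside 171 CPM (158 to 184) and 544 CPM (525 to 564) in gated cells. Car4 was between 0.026 and 0.31 CPM in the epithelial-gated and mesenchymal-gated cells of both libraries.

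Prx and Apln, the marker genes that the gate did not use, separated gated from other endothelial cells in the mutant library and not in the control library. In the control library Prx stood at 25.6 CPM in gated cells (20.9 to 31) and 24.4 CPM in the other endothelial cells (21.8 to 27.4), and Apln at 37.6 CPM (31.9 to 44.1) and 40.2 CPM (36.7 to 43.8), so the intervals overlapped for both genes. In the mutant library Prx stood at 214 CPM in gated cells (202 to 226) and 71.8 CPM in the others (67.4 to 76.4). Apln stood at 78.9 CPM (71.6 to 86.7) and 40.1 CPM (36.8 to 43.6), and neither pair of intervals overlapped. Car4 itself had 17 UMIs in gated control cells, 4.18 CPM (2.43 to 6.69), against 332 CPM (316 to 347) in gated mutant cells. The marker genes other than those of the gate therefore do not bear out the name aerocyte for the gated control cells, which are called by their gate throughout. Prx and Apln were higher in the gated mutant cells as a set, though 185 of the 487 had no Car4 UMI. Those with a Car4 UMI are called Car4-bearing cells below. The division of gated cells by a Car4 UMI was made after these values were seen.

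The same held when each cell was thinned to 2000 UMIs, which left out 2 gated and 72 other mutant cells and 162 other control cells as too shallow. Prx then had a UMI in 5.43% of gated and 5.25% of other control cells, and in 36.1% of gated and 13.3% of other mutant cells, with 47% of Car4-bearing cells. Without thinning, 48.9% and 18.0% of gated and other control cells and 64.9% and 33.4% of gated and other mutant cells had one. Apln had a UMI in 4.35% and 5.54% of thinned control cells and in 15.3% and 6.93% of thinned gated and other mutant cells. Values on the near sides of the limit were of the same order. The 121 mutant cells with 3 UMIs of the gating genes, just outside, had 87.9 CPM of Prx and 42.8 CPM of Car4, and the 88 with 4, just inside, had 133 and 102 CPM. In the control library the 46 cells just outside had 18.8 CPM of Prx and 3.14 CPM of Car4, and the 31 just inside had 24.7 and 1.60 CPM.

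**Figure D2:**
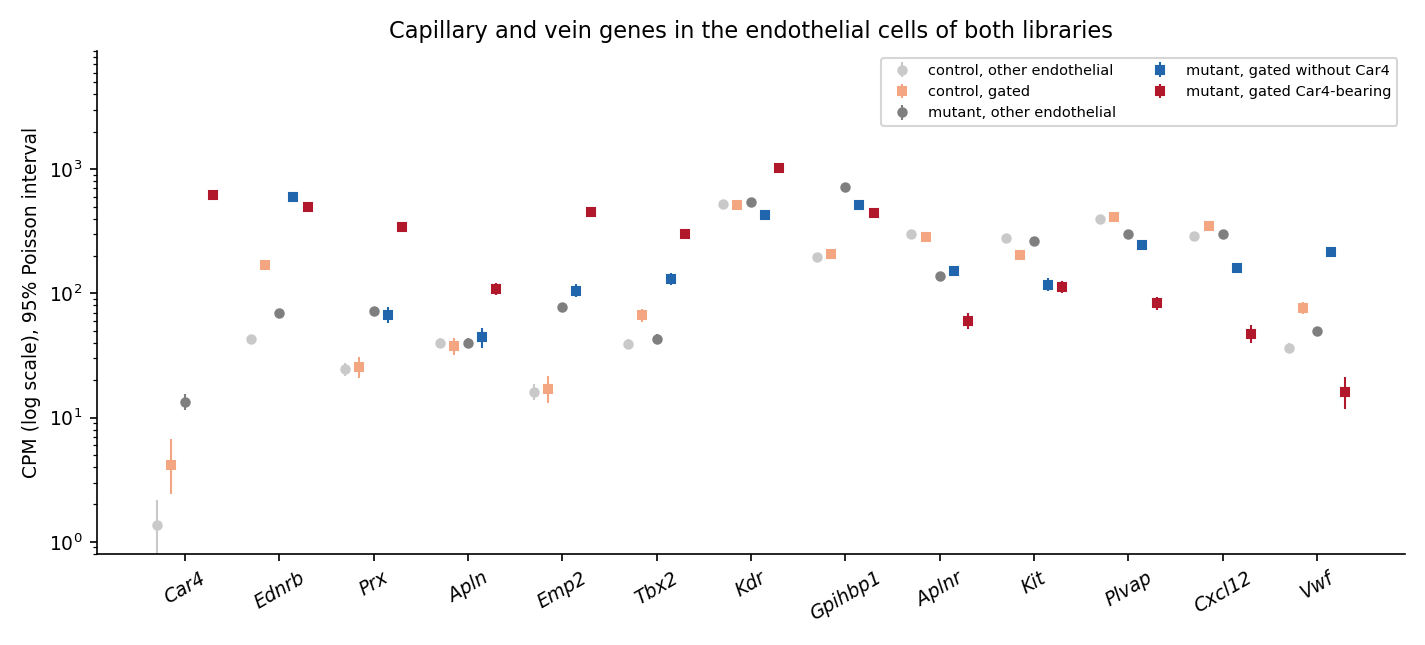
CPM (log axis) of 13 genes in gated and other endothelial cells of the control library and in Car4-bearing, Car4-free gated and other endothelial cells of the mutant library; points are summed levels and bars exact Poisson 95% intervals. Prx is at 343 CPM in Car4-bearing mutant cells and at 67.1, 71.8, 25.6 and 24.4 CPM in the other sets. Car4 is at 0 by choice in the Car4-free set and is not drawn there.

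The difference between the libraries in Car4 did not depend on the gate. Over all endothelial cells, 26 of 1283 control cells (2.03%; 1.33 to 2.96) and 445 of 2059 mutant cells (21.6%; 19.9 to 23.5) had a Car4 UMI. The summed level was 2.06 CPM in the control (1.42 to 2.87; 34 UMIs) and 105 CPM in the mutant library (100 to 109; 2007 UMIs). Prx followed with 24.7 CPM (22.4 to 27.2) and 113 CPM (108 to 117). Apln moved less, from 39.5 CPM (36.6 to 42.7) to 51.2 CPM (48.1 to 54.5). Kdr, the VEGF receptor that marks all endothelium and is highest in aerocytes, was at 521 and 598 CPM. Of all endothelial cells, those gated and bearing Car4 made up 0.857% in the control library (0.43 to 1.53) against 14.7% in the mutant library (13.2 to 16.3).

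The gated mutant cells without a Car4 UMI were a mixture. Of these 185 cells, 64 (34.6%) had at least 10 UMIs of the collagen genes Col1a1, Col1a2 and Col3a1, 29 had at least 2 UMIs of Vwf, a clotting factor gene strong in veins, 6 of them had both, and 98 (53.0%) had neither. These limits were set after the values were seen. Among Car4-bearing cells, 24 of 302 (7.95%) passed the collagen limit and 4 (1.32%) the Vwf limit, and 274 (90.7%) passed neither. The other mutant endothelial cells passed them in 3.50% and 6.49% of cases. Gated control cells passed the collagen limit in 29.3% and the Vwf limit in 23.9% of cases, and the other control cells in 6.38% and 7.39%. The limits are UMI counts and gated control cells were deeper. Per 1000000 UMIs, Col1a1 was at 150 CPM in gated and 111 CPM in other control cells, and Vwf at 76.7 and 36.6 CPM.

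Each kind of Car4-free gated cell had its own genes. The 23 mutant cells with Vwf and without collagen had 1395 CPM of Vwf, which chose them. They had 423 CPM of the venous transcription factor Nr2f2 and 409 CPM of Car8, beside 82.6 and 20.2 CPM in the other endothelial cells. Prx was only at 19.6 CPM in the 23 cells and the division gene Mki67 at 8.40 CPM. Their venous list, of which Vwf is a member, had a median of 2.05 on the log2 scale over the other endothelial cells, with 5 of 6 measured genes higher by at least 1. Their arterial list was raised too, with 6 of 13 measured genes higher, none lower and a median of 0.81. The arterial list gene Fbln5 was at 1092 CPM, beside 77.7 CPM in the other endothelial cells. The 58 cells with collagen and without Vwf had 656 CPM of the fibroblast receptor gene Pdgfra, 3363 CPM of Mgp and 161 CPM of Kdr, beside 541 CPM of Kdr in the other endothelial cells. Of the Car4-free kinds, the 98 cells with neither had the most Prx, at 129 CPM (108 to 152), Apln, at 89.8 CPM, and Kdr, at 736 CPM. Of 16 measured genes of the aerocyte list below, 13 were above the other endothelial cells, but only 1 by at least 1, with a median of 0.47. Emp2 and Plvap were at 91.7 and 320 CPM, beside 77.1 and 303 CPM in the other endothelial cells. In the 98 cells the 20 cell division genes were all above the other endothelial cells, with a median of 0.59 and Mki67 at 303 CPM.

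Doublets, that is droplets with 2 cells, moved with the collagen. A Scrublet score of at least 0.2 was found in 12.5% of gated and 4.33% of other mutant endothelial cells, and in 10.9% and 4.03% of control ones. Within the gated mutant cells it was found in 8.28% of Car4-bearing cells, in 32 of the 58 collagen-bearing Car4-free cells (55.2%), and in none of the 23 with Vwf or the 98 with neither. Among Car4-free gated control cells it was found in 9 of the 21 with collagen (42.9%), and in none of the 17 with Vwf or the 40 with neither. The summed level of the 8 mesenchymal markers, 3 of which set the collagen limit, was 1600.5 CPM in Car4-bearing cells, 3178 CPM in Car4-free gated cells and 988 CPM in the other endothelial cells, beside 12740 CPM in mesenchymal-gated cells. The 8 pericyte and smooth muscle markers were at 294, 656 and 67.1 CPM. In gated and other control cells the mesenchymal markers were at 993 and 861 CPM and the pericyte and smooth muscle markers at 496 and 141 CPM. How far RNA of mesenchymal cells, as doublets or as free RNA, set the levels in gated cells was not tested, apart from leaving out the collagen-bearing cells. Without them the aerocyte list below had a higher median, 1.37 in place of 1.27.

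**Figure D3:**
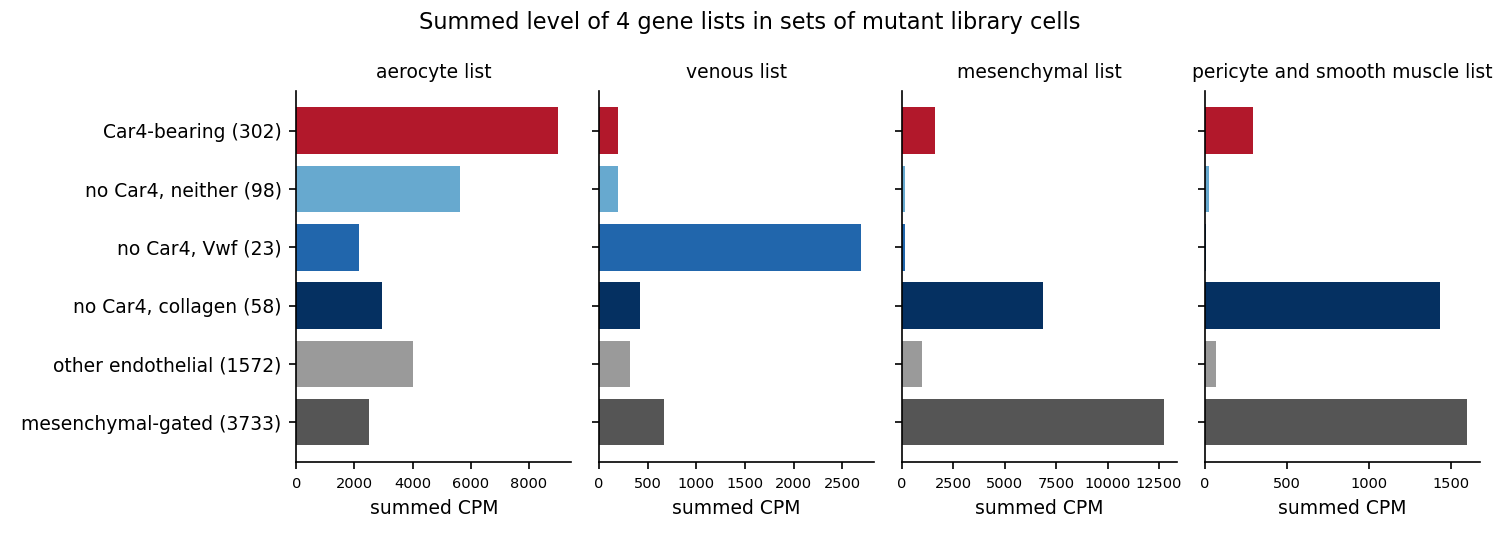
Summed CPM (horizontal axes, each from 0 on its own scale) of the aerocyte, venous, mesenchymal and pericyte and smooth muscle lists in sets of mutant cells, with the number of cells in brackets. Vwf belongs to the venous list and the 3 collagen genes to the mesenchymal list, so the sets named for them are high there by choice; the mesenchymal list is at 6860 CPM in the collagen-bearing Car4-free cells and at 175 CPM in the Car4-free cells with neither Vwf nor collagen.

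A gene is called measured below if it had at least 10 CPM and 20 UMIs in either set compared, and differences are log2 ratios after adding 10 CPM to both levels. A gene counted as higher or lower lay at least 1 away on that scale. In the control library 21 of 9061 measured genes were higher in gated cells (0.232%) and 10 were lower (0.11%). In the mutant library 215 of 9477 were higher (2.27%) and 21 lower (0.222%). Taken alone, the Car4-bearing cells had 158 of 9387 genes higher (1.68%) and 92 lower (0.98%), and the Car4-free gated cells had 388 of 9707 higher (4.0%) and 22 lower (0.227%). The median over all measured genes was 0.05 in the control library, against 0.01 for the mutant.

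The aerocyte genes other than Car4 and Ednrb were higher in the Car4-bearing cells, and not in the gated control cells. Of 20 listed genes, 18 were measured in the Car4-bearing comparison, and 11 of these were higher and none lower, with a median of 1.27. For all gated mutant cells 8 of 18 were higher (median 0.88), and for the Car4-free ones 2 of 17 (median 0.09). In the control library none of 16 measured genes was higher or lower, and the median was -0.05. Of the gated control cells, 19 had at least 5 UMIs of the gating genes per 10000. In these, 4 of 16 genes were higher and 1 lower, with a median of -0.40. Tbx2 and Emp2 were at 196 and 62.0 CPM in them, beside 39.1 and 16.1 CPM in the other control endothelial cells. Prx and Apln were at 16.3 and 22.8 CPM, beside 24.4 and 40.2 CPM. Those 19 cells had 1909 CPM of the smooth muscle gene Acta2, beside 75.6 CPM in the other control endothelial cells. More Car4 went with more of the list: the median was 1.40 in the 205 cells with 4 or more Car4 UMIs and 0.98 in the 97 with 1 to 3. Rprml had no UMI in any endothelial cell of the mutant library.

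Among these genes Tbx2, a T-box transcription factor, was at 301 CPM in Car4-bearing cells and 43.1 CPM in the other mutant endothelial cells, a difference of 2.55, and at 67.1 and 39.1 CPM in gated and other control cells. Emp2, a 4-pass membrane protein, was at 450 and 77.1 CPM (2.40) in the mutant and at 17.0 and 16.1 CPM in the control library. Pmp22, of the same protein family, was at 702 and 149 CPM (2.16) and at 60.0 and 51.2 CPM. All 3 were also found outside the endothelium, with Emp2 at 1076 CPM in mutant epithelial-gated cells and Tbx2 and Pmp22 at 265 and 350 CPM in mesenchymal-gated cells. Prx and Apln were not, at 6.36 and 1.62 CPM in mesenchymal-gated and 3.13 and 0.23 CPM in epithelial-gated mutant cells. Prx was 2.11 higher in Car4-bearing cells, at 343 CPM (322 to 365), and Apln 1.25 higher, at 109 CPM (97.8 to 122).

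Kitl, the ligand of the receptor Kit, was at 1633 CPM in Car4-bearing cells against 593 CPM (1.45), and at 198 and 204 CPM in gated and other control cells. Fendrr, a long noncoding RNA transcribed beside Foxf1, was at 851 and 368 CPM (1.19). Igfbp7, a secreted binding protein, was at 690 and 262 CPM (1.36). Less abundant members showed the same direction, among them the sulfotransferase gene Chst1 at 40.7 and 4.02 CPM (1.85), Sirpa, a receptor for CD47, at 46.5 and 5.63 CPM (1.85), and the tetraspanin gene Tspan8 at 87.6 and 29.98 CPM (1.29). Kdr was at 1020 CPM (984 to 1057) and 541 CPM (0.90), short of the limit of 1, as were Nrp1 at 1088 and 633 CPM and the lectin gene Clec1a at 953 and 566 CPM. Icam1 stood at 75.3 and 86.3 CPM (-0.18).

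General capillary genes were lower in the Car4-bearing cells, though not uniformly. Of 16 measured genes 8 were lower and 2 higher, with a median of -0.87, while in the control library none of 14 was either (median -0.05). The chemokine gene Cxcl12 was at 47.2 CPM in Car4-bearing cells and 299 CPM in the others (-2.43). Plvap, which forms the diaphragms of caveolae and fenestrae, was at 83.1 and 303 CPM (-1.75). The phosphatase gene Ptprb was at 202 and 782 CPM (-1.90) and Tek, the angiopoietin receptor that its product acts on, at 80.1 and 271 CPM (-1.64). Kit stood at 114 and 262 CPM (-1.14) and Aplnr at 59.9 and 137 CPM (-1.07), so in both the Kitl to Kit and the Apln to Aplnr pairs the ligand was higher and the receptor lower. Gpihbp1, which holds lipoprotein lipase in the capillary, stood at 446 and 713 CPM (-0.67). Sema3c and Tmem100 ran the other way, at 83.1 and 18.4 CPM (1.71) and at 237 and 88.2 CPM (1.33).

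**Figure D4:**
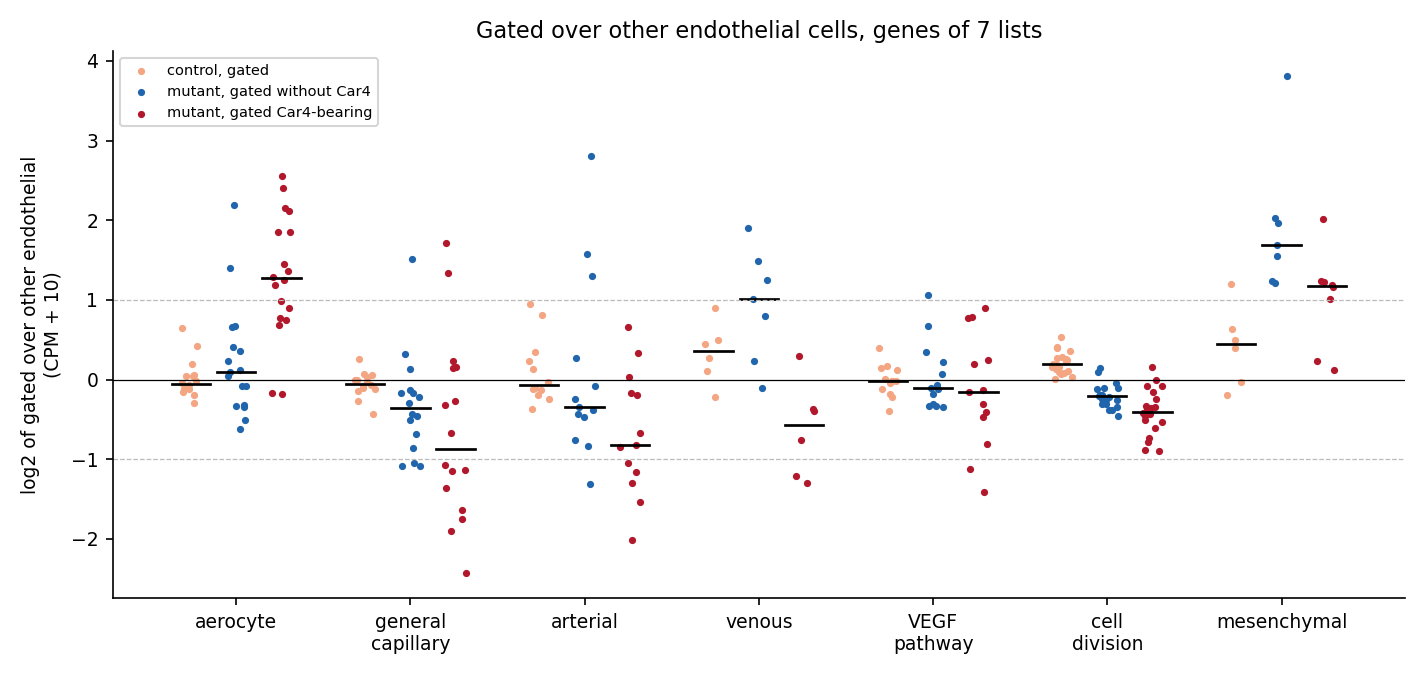
Log2 difference from the other endothelial cells of the same library (vertical axis) for each measured gene of 7 lists, in gated control cells, Car4-free gated mutant cells and Car4-bearing mutant cells; bars are list medians and dashed lines lie at 1 and -1. The aerocyte medians are -0.05, 0.09 and 1.27 and the general capillary medians -0.05, -0.36 and -0.87 in that order. The venous list includes Vwf and the mesenchymal list the 3 collagen genes used above.

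Some genes of other vessel types were lower in the Car4-bearing cells. Of 13 measured arterial genes 5 were lower and none higher, and Gja4, encoding a gap junction protein of arteries, was at 14.7 and 89.7 CPM (-2.01). Of 6 measured venous genes 2 were lower, with Vwf at 16.1 and 50.2 CPM (-1.21). The comparison set is itself mixed, since the other endothelial cells include lymphatic ones. Ccl21a, a lymphatic chemokine gene, had 57.3 CPM in them and 0.34 CPM in Car4-bearing cells, and the scavenger receptor gene Stab2 had 89.6 and 6.16 CPM. The rest of the lymphatic list moved unequally between all gated and other mutant cells. Reln was at 2.73 and 29.9 CPM, Mmrn1 at 18.5 and 39.6 CPM and Thy1 at 0.545 and 3.95 CPM. Prox1 was at 17.1 and 23.0 CPM, Lyve1 at 435.5 and 484 CPM, Flt4 at 57.1 and 57.0 CPM and Pdpn at 7.63 and 5.92 CPM.

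VEGF pathway genes moved little as a list, with 2 of 13 measured genes lower, none higher and a median of -0.15. Kdr stood at 0.90 as given above, whereas Nrp2, a co-receptor, was at 52.0 and 154 CPM (-1.41) and the ligand gene Vegfc at 38.0 and 94.6 CPM (-1.12). Vegfa was at 28.4 and 37.4 CPM in these cells and at 247 CPM in mutant epithelial-gated cells. Of the endothelin and apelin genes Edn1, the ligand of Ednrb, was at 41.4 and 109 CPM (-1.22).

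Among 24 measured endothelial transcription factors 2 were higher and 2 lower. Tbx3, a relative of Tbx2, was at 334 and 133 CPM (1.27), Mecom at 110 and 426 CPM (-1.86) and Tcf15 at 6.50 and 26.9 CPM (-1.16). Foxf1, which the lung endothelium needs, was at 354 and 176 CPM (0.97). No measured gene of the Notch list, of the BMP and TGF-beta list or of the junction and caveola list was higher or lower.

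In the list of leukocyte adhesion and haemostasis genes, thrombomodulin (Thbd), which limits clotting, was at 379 and 162 CPM (1.18). Of 9 measured lipid genes 2 were lower. Fabp4, a fatty acid carrier of capillaries, was at 4.79 CPM (2.62 to 8.04) and 157 CPM (150 to 163), a difference of -3.49, and Fabp5 at 48.6 and 204 CPM (-1.87). Cd36, which takes up fatty acids, stood at 427 and 624 CPM (-0.54). Of 16 measured basement membrane genes 1 was lower, Col15a1 at 20.2 and 74.7 CPM (-1.49), and Col4a1 was at 3109 and 2049 CPM (0.60). In the list of guidance and cell shape genes 3 of 19 were higher and 1 lower. The semaphorin gene Sema7a was at 156 and 45.8 CPM (1.57), while Sema3g, an arterial semaphorin, was at 5.47 and 27.9 CPM (-1.29).

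Markers of other cells moved unequally. Epithelial markers summed to 1344 CPM in Car4-bearing and 817 CPM in other mutant endothelial cells, with the surfactant gene Sftpc at 1033 and 567 CPM. Of these markers Hopx was higher, at 104 and 44.8 CPM (1.06), while Ager, a defining gene of alveolar type 1 cells, was at 89.6 and 111 CPM (-0.28). Immune and red cell markers were lower, at 797 and 4710 CPM in sum. The part of this RNA in the differences above was not tested.

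Beyond the lists, genes at 50 CPM or more were ranked by the difference between Car4-bearing and other mutant endothelial cells, leaving out genes with a higher level in epithelial-gated or mesenchymal-gated cells. This ranking was added after the data were seen. Highest was Prickle2, a planar cell polarity gene, at 633 and 81.4 CPM (2.81). It was followed by the integrin gene Itgb5 at 145 and 13.0 CPM (2.76), Tbx2, Tbx3os1 (2.48) and the sialyltransferase gene St6galnac5 at 121 and 18.2 CPM (2.21). Others among the first 20 were the chloride cotransporter gene Slc12a2 at 402 and 82.5 CPM (2.16), Hapln1, which links hyaluronan to matrix, at 388 and 96.1 CPM (1.91), and adrenomedullin (Adm), a vasodilator peptide, at 60.6 and 9.51 CPM (1.85). In gated and other control cells Prickle2 had 6.15 and 4.33 CPM, Itgb5 5.90 and 6.65 CPM and Hapln1 119 and 116 CPM. Prickle2 and Itgb5 were thus under the 10 CPM of a measured gene there, too low to show whether they differed. Lowest were Fabp4, Ccl21a, Stab2 and Thsd7a, the last at 19.2 and 161 CPM (-2.55).

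The Car4-free gated mutant cells were ranked in the same way, but with genes up to 5 times higher in other cells kept. The top of that ranking held genes of mesenchymal-gated cells. Such genes could not enter the ranking of Car4-bearing cells, so the rankings cannot be compared on them. Nrxn3 was at 834 CPM against 26.5 CPM in the other endothelial cells (4.53) and at 1087 CPM in mesenchymal-gated cells. Pdgfra was at 287 and 11.1 CPM (3.82) and at 383 CPM in mesenchymal-gated cells. Tagln, a smooth muscle gene, was at 202 and 13.5 CPM (3.18) and at 503 CPM in mesenchymal-gated cells.

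Few genes set gated cells apart in the control library, and most of those higher there were higher in the mutant library too. Of 8458 genes measured in both, 16 were higher in each (0.189%) and 5 lower (0.0591%). Gated control cells had 21 genes higher and 10 lower in all, so these counts could not be larger than that. In gated mutant cells 2.27% of all measured genes were higher and 0.222% lower. Collagen-bearing cells, 29.3% of gated control and 18.1% of gated mutant cells, are included here. The count of higher genes was smaller without them, as given in the last section. Genes over 5 times higher in epithelial-gated or mesenchymal-gated cells were left out of the ranking. The highest ranked, by the smaller of the 2 differences, was Tgfbi, a secreted matrix protein gene. It was at 77.0 and 25.3 CPM in gated and other control cells (1.3) and at 259 and 46.7 CPM in the mutant (2.25). Next came Igf1, the growth factor gene, at 71.3 and 24.1 CPM (1.25) and at 139 and 35.5 CPM (1.71), and the contractile light chain gene Myl9 (1.12 and 1.5). Vwf was at 76.7 and 36.6 CPM in the control (0.90) and at 109 and 50.2 CPM in the mutant library (0.98). The smooth muscle genes Tagln and Acta2 were not among the ranked genes, though the difference of Tagln was above that of Tgfbi. Tagln was at 109 and 16 CPM in gated and other control cells (2.19) and at 147 and 13.5 CPM in the mutant ones. Acta2 was at 291 and 75.6 CPM in the control and at 187 and 25.9 CPM in the mutant library. The ranking took any size of difference. On its lower side were Kit (-0.44 and -1.12) and Glp1r, a general capillary receptor gene (-0.26 and -1.12), neither of which was 1 lower in the control library. No gene of the aerocyte list was among the 12 ranked on the higher side. With 12 places for 8458 measured genes, that says little about the list.

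Cell division genes differed by small amounts. All 20 were above the other endothelial cells in gated control cells, with a median of 0.19, and 1 of 20 was in gated mutant cells, with a median of -0.29. None reached a difference of 1 in either. In Car4-bearing cells the median was -0.40. Thinned to 2000 UMIs, 45.7% of gated and 32.6% of other control cells had an Mki67 UMI, beside 14.2% of gated, 11% of Car4-bearing and 17.1% of other mutant cells. The control direction depended on which cells the gate took. In the 19 gated control cells with at least 5 UMIs of the gating genes per 10000, whose median depth was 15517 UMIs, 1 of 20 division genes was above the other endothelial cells and 6 were lower, with a median of -0.75.

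Comparing gated cells between libraries sets the host, the library and the software version against each other at once, and these cannot be told apart. The make-up and depth of the gated cells differed as well, and cannot be told apart from these. A Car4 UMI was found in 12% of gated control and 62.0% of gated mutant cells, and their median depths were 31646 and 9152 UMIs. The differences in gene level also followed intron length. Their median in gated cells was -0.47 where a gene had up to 2 kb of intron and 1.53 where it had over 200 kb. Each difference is therefore also given relative to genes with similar amounts of intron, and beside the same value in the other endothelial cells. In plain values 1300 of 9917 measured genes were higher in mutant than in control gated cells (13.1%) and 651 lower (6.56%), and in relative values 695 of 9913 were higher (7.01%) and 394 lower (3.97%). In the other endothelial cells, relative values were higher for 4.42% and lower for 1.94% of measured genes, and over all endothelial cells for 5.05% and 2.12%.

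The aerocyte list had larger shares of higher genes than these in each set. In gated cells 15 of 18 measured genes were higher and none lower, in plain and in relative values, with medians of 1.62 and 1.80. In the other endothelial cells 7 of 16 were higher in relative values (median 0.92), and over all endothelial cells 11 of 17 (median 1.16). The relative difference of Emp2 was 3.54 in gated and 1.84 in other cells, of Prx 2.95 and 1.54, of Pmp22 2.90 and 1.48, and of Fendrr 2.33 and 1.53. Tbx2 and Apln differed mainly in the gated cells, at 2.05 and 1.36 against 0.52 and 0.40. Kdr differed little, at 0.50 and 0.02.

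General capillary genes had no common direction between libraries. In gated cells 3 of 16 were higher and 3 lower in relative values, with a median of -0.10. Cxcl12 was at 348 CPM in gated control and 100 CPM in gated mutant cells (relative -1.24) and had a relative value of 0.45 in the other cells. Plvap had relative values of -1.01 and -0.08, and Kit -1.14 and -0.46. Gpihbp1 was higher in the mutant library in both sets, with relative values of 1.61 and 2.23.

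**Figure D5:**
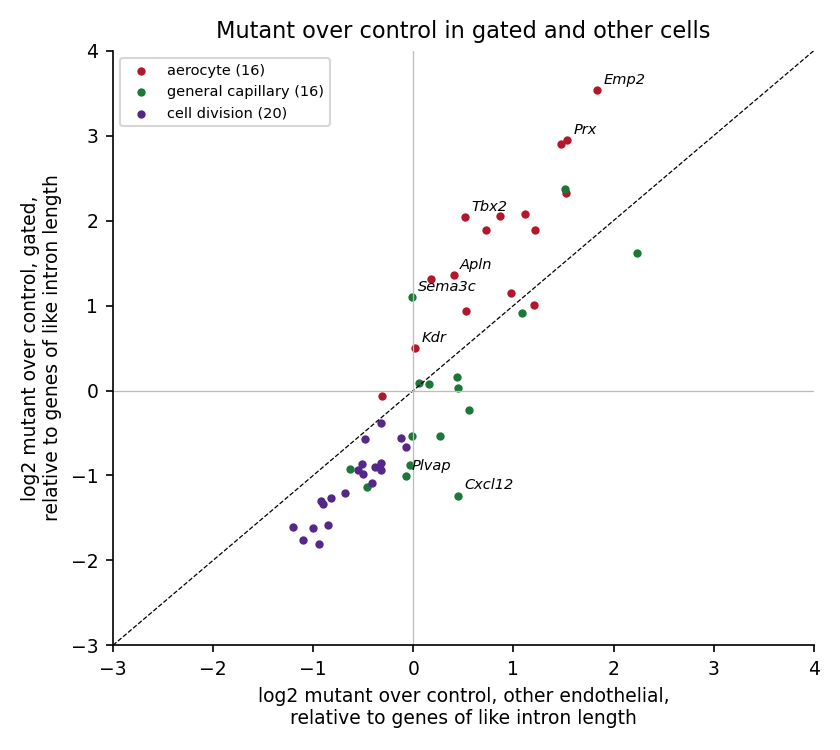
Log2 difference of mutant over control, relative to genes with similar amounts of intron, in gated cells (vertical axis) against other endothelial cells (horizontal axis), 1 point per gene measured in both, for 16 aerocyte, 16 general capillary and 20 cell division genes; the dashed line marks equal differences. Emp2, Prx, Tbx2 and Apln lie above the line, Cxcl12 and Plvap below it, and the cell division genes lie below 0 on both axes.

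Cell division genes were lower in mutant than in control gated cells. In relative values 10 of 20 were lower and none higher (median -1.04), beside 3 of 20 in the other endothelial cells (median -0.53). Mki67 was at 402 CPM in gated control and 154 CPM in gated mutant cells, and at 331 and 209 CPM in the others. Of 14 genes that respond to tissue dissociation, 4 were lower and 2 higher in gated cells by relative values, and 5 were lower and none higher in the other cells. The heat shock gene Hspa1a had relative differences of -4.03 and -4.68. Markers of other cell types moved as well. Of 6 measured epithelial markers all were higher in mutant gated cells (median 2.13, and 1.45 in the other cells), and of 7 measured mesenchymal markers all were higher (median 1.32, and 0.30). Their part in the differences of single genes was not tested.

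By the ranking of relative differences, the highest genes included Aff3 at 4.01 in gated and 2.31 in other cells, Prickle2 at 3.22 and 1.40, and Prkg1, a cGMP-dependent kinase gene, at 3.55 and 3.13. The lowest included the collagen genes Col18a1 at -2.50 and -2.52 and Col15a1 at -2.21 and -1.64, and Gja4 at -2.25 and -0.39. Galnt2l was listed at 0 in gated control cells, so no fold is given for it. The genes whose difference between gated and other cells changed most from control to mutant were Hspb1, Hapln1, CT010467.1, Igfbp7 and Socs3 on the higher side and Cxcl12, Tm4sf1, Edn1, Plvap and Glp1r on the lower side. Hspb1, a small heat shock protein gene, was at 1074 and 1324 CPM in gated and other control cells and at 485 and 239 CPM in the mutant ones.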

How the data were processed

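Single-cell RNA libraries of E20.5 chimeric lung, 1 control and 1 mutant, were read as the authors' deposited matrices of UMI counts per gene and barcode, with no scaling. Cell Ranger 6.0.1 wrote the control file and 7.0.1 the mutant file, per the file headers, and whether intronic reads were counted was not stated there. Builds mm10 and rn6 and Seurat 4.3 are named per the submitters' processing notes. The members and gene lists were chosen with earlier results of these data known.

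Mouse cells had at least 500 genes, at most 20% mitochondrial UMIs and at least 90% mouse UMIs. Epithelial-gated cells had at least 4 Epcam UMIs and mesenchymal-gated cells at least 10 collagen UMIs, both with at most 2 UMIs of the endothelial genes. UMIs were summed per set and library and given per 1000000 mouse UMIs (CPM). Intervals were exact Poisson for levels and exact Clopper-Pearson for shares, and a log2 difference used 10 added CPM. Intron lengths came from GENCODE vM21 (99.5% of 55293 symbols matched) and relative values from the median of 12 bins of intron length. No doublets were removed; Scrublet in Scanpy 1.11.5 gave the scores. A fixed rule named genes: 12 on each side at 50 CPM or more with the same sign in both libraries, by the smaller difference; 10 on each side at 100 CPM or more between libraries, by the relative difference; 5 on each side by the change of difference; the markers; and 2 to 4 genes of each list. Genes over 5 times higher in epithelial-gated or mesenchymal-gated cells, and mitochondrial, ribosomal, globin, sex-linked and unnamed genes were not ranked. Alternatives varied the limits, the depth, the added CPM, the filters, the weighting of cells and the cells left out. Python 3.11.15, NumPy 2.4.6, SciPy 1.17.1 and pandas 2.3.3 were used, and the procedure was tested on simulated data. Without replicates no test was made.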

Additional observations from a re-analysis of the deposited data

Results flagged for a closer look

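Socs3, which encodes a suppressor of cytokine signalling, differed from the other endothelial cells in opposite directions in the 2 libraries. It was lower in gated control cells, at 227 CPM against 334 CPM (-0.54 on the log2 scale), and higher in gated mutant cells, at 349 CPM against 239 CPM (0.53), a difference between the libraries of 1.06. That difference was not tested, since each group was 1 library. Within the gated mutant cells Socs3 was at 292 CPM in Car4-bearing cells and 415 CPM in Car4-free ones, and it was at 447 CPM in control and 217 CPM in mutant mesenchymal-gated cells.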

How the results depend on the processing

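With 1 library per group, depth limits these results through counting error and through the gate, which deep cells pass more easily, and no replicate was available to leave out. Over 19 alternatives, of which leaving out collagen-bearing cells and matching the other endothelial cells on depth were chosen after seeing the data, the aerocyte median lay between 0.52 and 1.18 in gated mutant cells, 0.81 and 1.44 in Car4-bearing cells, and -0.20 and 0.02 in gated control cells. The general capillary median lay between -0.76 and -0.34, -1.21 and -0.69, and -0.34 and 0.03 in the same order. The 19 gated control cells with at least 5 UMIs of the gating genes per 10000 are a part of the gated cells, not 1 of these alternatives. Their aerocyte and general capillary medians were -0.40 and -0.52, both below the control ranges. Counts of genes depended more on the choices. The count higher in gated cells ranged from 53 to 381 in the mutant and from 2 to 237 in the control library, and the count lower from 5 to 79 and from 3 to 171.

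The shares of gated cells in the control and mutant libraries were 17.9% and 39.0% with a limit of 2 UMIs, 2.03% and 11.9% with 8 UMIs, 3.35% and 19.2% with 5 per 10000 UMIs, 2.41% and 15.2% after thinning to 2000 UMIs, and 5.51% and 20.8% without collagen-bearing cells. The 16 genes higher in both libraries became 2, 101, 56, 46 and 4 under the same 5 settings. They became 9 with an endothelial limit of 8 UMIs, 39 and 2 with 1 and 50 added CPM, 46 with the mean over cells and 7 among genes at 50 CPM or more. The 5 genes lower in both became 0, 11, 9 and 9 under the first 4 settings and 1 with matched depth. Genes higher in mutant than control gated cells, 1300, became 423 with 50 added CPM, 826 at 50 CPM or more and 695 in relative values. Genes lower, 651, became 1230 and 179 with 1 and 50 added CPM and 394 in relative values. The mesenchymal median of Car4-bearing cells turned from 1.17 to -0.19 with the gate per 10000 UMIs, -0.58 after thinning and -0.0083 without collagen-bearing cells. Without those cells that of all gated mutant cells turned from 1.58 to -0.19, and Tbx2 in gated control cells stood at -0.059. Over the alternatives Tbx2 in those cells reached 1.76 and Emp2 1.41, both with the gate per 10000 UMIs. The cause was not tested, apart from the mesenchymal medians without collagen-bearing cells, where cells were left out by genes of the mesenchymal list.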
